A study of Homo sapiens with 9 samples.

Results

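The comparison described here set the unedited miRNA miR-376a*A against a control miRNA in U87 cells, an established human glioma line. It rested on 6 of the 9 arrays of the series, 3 of each group, and covered every probe set of the array except its built-in controls. All groups received their duplex by lipid transfection at 50 nM, and RNA was taken 24 h later. The other duplexes were miR-376a*G, the edited form, whose 3 arrays serve below for a direct test against the unedited form, and miR-control, whose sequence the labels do not give. There was no untransfected group, so each value compares transfections with each other. The labels name 3 biological replicates a group but no separate cultures or dates, so p-values measure the spread between these samples.

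A miRNA guides an Argonaute protein to messenger RNAs that pair with its seed, the short stretch near its 5′ end, and the paired messengers are usually repressed or degraded. Adenosine deaminases can convert an adenosine of a miRNA precursor to inosine, which is read as guanosine. In published work on miR-376a* the edited base lies in the seed, so that both forms can pair with different messengers, and a low level of editing has been described in gliomas.

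The name miR-376a* is an older one for the miRNA now called hsa-miR-376a-5p. The 5p miRNAs of the miR-376 genes on human chromosome 14 are shown because the seed sets which messengers can pair. Sequences are from RefSeq (GRCh38.p14, plus strand), 5′ to 3′, with the seed (bases 2 to 8) in capitals.
hsa-miR-376a-5p: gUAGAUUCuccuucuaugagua
hsa-miR-376a-2-5p: gGUAGAUUuuccuucuauggu
hsa-miR-376b-5p: cGUGGAUAuuccuucuauguuu
hsa-miR-376c-5p: gGUGGAUAuuccuucuauguu
The first lies at chr14:101040788-101040809 and the second at chr14:101040080-101040100. Their seeds, UAGAUUC and GUAGAUU, are offset by 1 base, while the other 2 share the seed GUGGAUA. The labels do not give the sequence of the transfected duplexes, so which of these sequences they carried is not known here. Matches of the seed to messengers were not analysed here.

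The arrays already shared a scale, with trimmed mean signals between 100.009 and 100.011. Over the 20068 features tested below, replicates correlated with r of 0.9939 to 0.9947 for miR-376a*A and 0.9865 to 0.9934 for the control. Control replicates 1 and 2 varied most around their group mean (SD 0.164 and 0.145 on the log2 scale, against 0.105 to 0.113 on the miR-376a*A arrays). Of 14 markers of U87 and mesenchymal glioma cells, 12 had a mean signal of at least 100, led by the calcium-binding protein gene S100A6 at 3390. The astrocyte markers GFAP and S100B stood at 1.82 and 1.21, below the filter on low values, although GJA1, another astrocyte marker, stood at 1170, and none of the 20 matched microglial, endothelial and epithelial markers reached a mean of 100. The summed signal of 7 neuronal markers was 883 to 951 with miR-376a*A and 442 to 479 in the control, and SNAP25 (mean 515) was its brightest member. Sums of the astrocyte markers (1547 to 1607 against 1262 to 1337), the endothelial markers (163 to 202 against 111 to 114) and the microglial markers (126 to 153 against 89 to 106) were also higher without overlap. That of the oligodendrocyte markers was lower without overlap (364 to 367 against 416 to 430). Most of the astrocyte sum came from GJA1 and most of the oligodendrocyte sum from CNP (mean 299). In the astrocyte, endothelial and microglial sets, 4 of the 7 matched markers each had a mean below the filter on low values. These sums thus rest on few genes or on dim signals. Sums of the epithelial and the U87 markers overlapped between the groups. The part of such markers in the results below was not tested. In such bulk samples fewer cells of a type and less RNA per cell cannot be told apart, and 3 arrays a group limit the precision.

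With miR-376a*A, genes of many functions moved in both directions. Differences are given as log2(signal + 16), a scale that understates the change of dim genes, and a feature is a gene with 1 symbol, represented by its brightest probe set, or a probe set without a single symbol. Of 20068 features, 4177 passed limma's test at an adjusted p under 0.05 (20.8%), of which 2164 (10.8%) were higher and 2013 (10.0%) were lower. Among the 13697 genes with 1 symbol 3067 passed (22.4%), 1427 higher (10.4%) and 1640 lower. At least 2-fold differences were found for 184 features (0.917%), with 71 higher (0.354%) and 113 lower (0.563%). Large falls outnumbered large rises, while at 1.5-fold or more 421 were higher and 451 lower. The median of all features was 0.04. With median centring of the arrays the split turned to 1659 higher and 2353 lower, from 51.8% to 41.4% higher, so the balance of small changes depends on the scaling.

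The direction of the calls varied with brightness. Among 5 equal groups by signal, the dimmest had 3.11% higher and 1.22% lower calls, and the next to brightest, with signals of 130.8 to 362.3, had 13.7% higher and 19.7% lower. The brightest group had 14.6% higher and 12.1% lower. Probe sets without a single symbol gave 737 rises and 373 falls among 6371, a higher share of rises than among genes with 1 symbol. In 7355 features (36.7%) the 3 miR-376a*A arrays did not overlap the 3 control arrays.

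**Figure D1:**
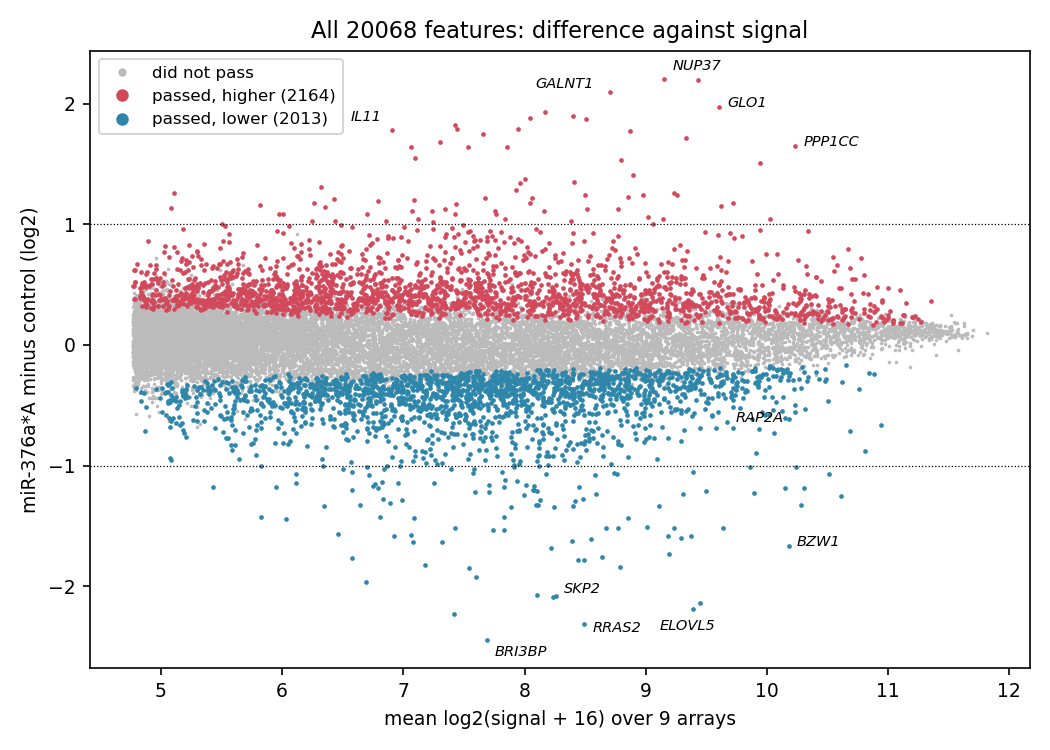
Log2 difference of miR-376a*A minus control against the mean log2(signal + 16) over 9 arrays, with each point a feature and dotted lines at a 2-fold change. The points that passed (2164 higher, 2013 lower) lie on both sides of 0, and more of them lie beyond 2-fold below the axis (113) than above it (71).

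The largest falls were those of genes with varied functions, led by BRI3BP, RRAS2 and COMMD2. The largest falls and rises were ranked only among genes whose miR-376a*A and control arrays did not overlap, so this separation was set by the choice. That rule left out no passed feature of at least 2-fold, since all 113 lower and all 71 higher ones were apart. BRI3BP had signals of 59.6, 53.4 and 44.3 on the miR-376a*A arrays and 353.9, 374.2 and 337.9 on the control arrays. The groups lay far apart, and the difference was -2.44 ± 0.092 (SE), or 5.44-fold (adjusted p = 4.08e-09 by limma). RRAS2, a RAS-family GTPase gene, read 100.2, 100.8 and 102.6 with miR-376a*A against 540.3, 601.2 and 558.8 in the control. All 3 treated arrays were nearly equal and far below every control array, a 4.97-fold fall. COMMD2, of the COMM-domain family, gave 46.9, 39.8 and 46.6 against 274.9, 233.6 and 297.1, which is 4.69-fold lower.

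ELOVL5, an elongase of polyunsaturated fatty acids, stood at 258.3, 235.2 and 231.1 against 1187.5, 1095.4 and 1195.1. VMA21, which helps to assemble the vacuolar proton pump, stood at 248.3, 256.1 and 258.3 against 1294.9, 1158.4 and 1083.8. These are the brightest of the 5 largest falls, at 4.57-fold and 4.41-fold, but each rests on 1 probe set: the other tested probe sets of ELOVL5 gave -0.33 to 0.07 and that of VMA21 gave -0.23, and none of them passed. SKP2, the F-box subunit that directs an SCF ubiquitin ligase to the cell-cycle inhibitor p27, read 93.5, 104.1 and 112.5 against 588.4, 457.7 and 443.7. Its highest treated array was well below its lowest control array, and the fall of 4.27-fold was shared by its other 2 tested probe sets (both -1.77).

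Further falls of 3.11-fold to 4.24-fold completed the 20 largest. TWSG1 encodes a secreted modulator of BMP signals, TVP23B a Golgi membrane protein, ATE1 the enzyme that adds arginine to proteins, TOR1B an ATPase of the endoplasmic reticulum and nuclear envelope, and YRDC an enzyme of tRNA modification. SEC23B codes for a coat protein of COPII vesicles, UGDH for the enzyme that makes UDP-glucuronate, ERLIN2 for a protein of endoplasmic-reticulum degradation, PITRM1 for a mitochondrial protease, NAPG for a SNARE-recycling factor, BZW1 for a regulator of translation and SLC39A10 for a zinc importer. ATE1 signals were 32.3, 28.2 and 28.0 against 189.2, 126.8 and 173.8. Those of SEC23B were 154.6, 140.7 and 137.6 against 582.8, 465.0 and 565.8. In both genes the control arrays were spread more widely than the treated ones. The long non-coding transcript STX17-DT was the least even, at 152.9, 48.8 and 88.2 against 471.4, 389.4 and 240.4, with a difference of -1.82 ± 0.295 (SE). Other tested probe sets of ARMCX5, PITRM1 and NAPG gave 0.25, 0.27 and -0.18 and did not pass, so these falls also rest on 1 probe set each. The 2 others of ATE1 gave smaller falls, -0.52 and -0.18, of which 1 passed.

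**Figure D2:**
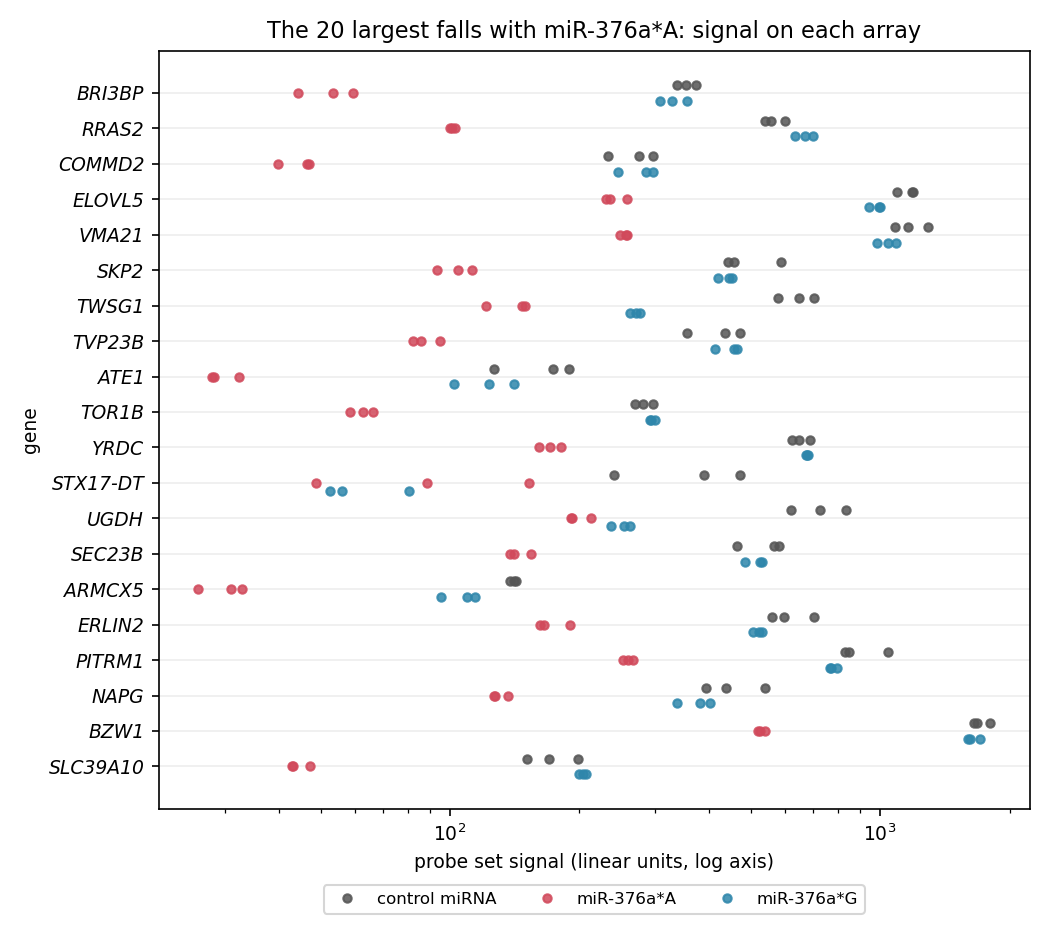
Probe set signal (linear units on a log axis) on each of the 9 arrays for the 20 largest falls, with 1 point per array. In each gene the miR-376a*A points lie left of all control points, as the choice of genes required. The miR-376a*G points lie near the control except for TWSG1, STX17-DT and UGDH.

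The largest falls were tested directly against the edited form. The unedited arrays were lower than the miR-376a*G arrays in 19 of the 20 genes with the largest falls, at an adjusted p under 0.05 by limma. Over all features 3671 (18.3%) passed between the forms, 1585 (7.9%) lower and 2086 (10.4%) higher with the unedited form. Among genes with 1 symbol the shares were 9.72% and 10.8%. In 8468 features (42.2%) the arrays of both forms did not overlap. The miR-376a*A arrays enter this test and the test against control alike, so both are not independent. RRAS2 read 632.5, 698.7 and 667.9 with miR-376a*G, above the control, and the difference between the forms was -2.54 ± 0.068 (SE). UGDH read 236.3, 253.3 and 262.0 and TWSG1 262.0, 276.2 and 270.8 with miR-376a*G, between the unedited form and the control, and their differences between the forms were -0.31 and -0.88. STX17-DT did not pass between the forms (0.42 ± 0.295, SE).

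Of all 113 features that fell at least 2-fold, 96 were also lower than with the edited form, 0 were higher (2 at an unadjusted p under 0.05) and 17 did not pass. Their median difference was -1.28 against the control and -1.18 against miR-376a*G. Of the 71 that rose at least 2-fold, 19 (26.8%) were also higher than with the edited form, 4 were lower and 48 did not pass, with medians of 1.22 against the control and 0.02 against miR-376a*G. Most large falls passed against both other groups, and most large rises did not pass between the forms. The count of features that passed between the forms fell from 3671 to 2441 when the second miR-376a*A array was left out, and to 2331 when the second miR-376a*G array was.

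**Figure D3:**
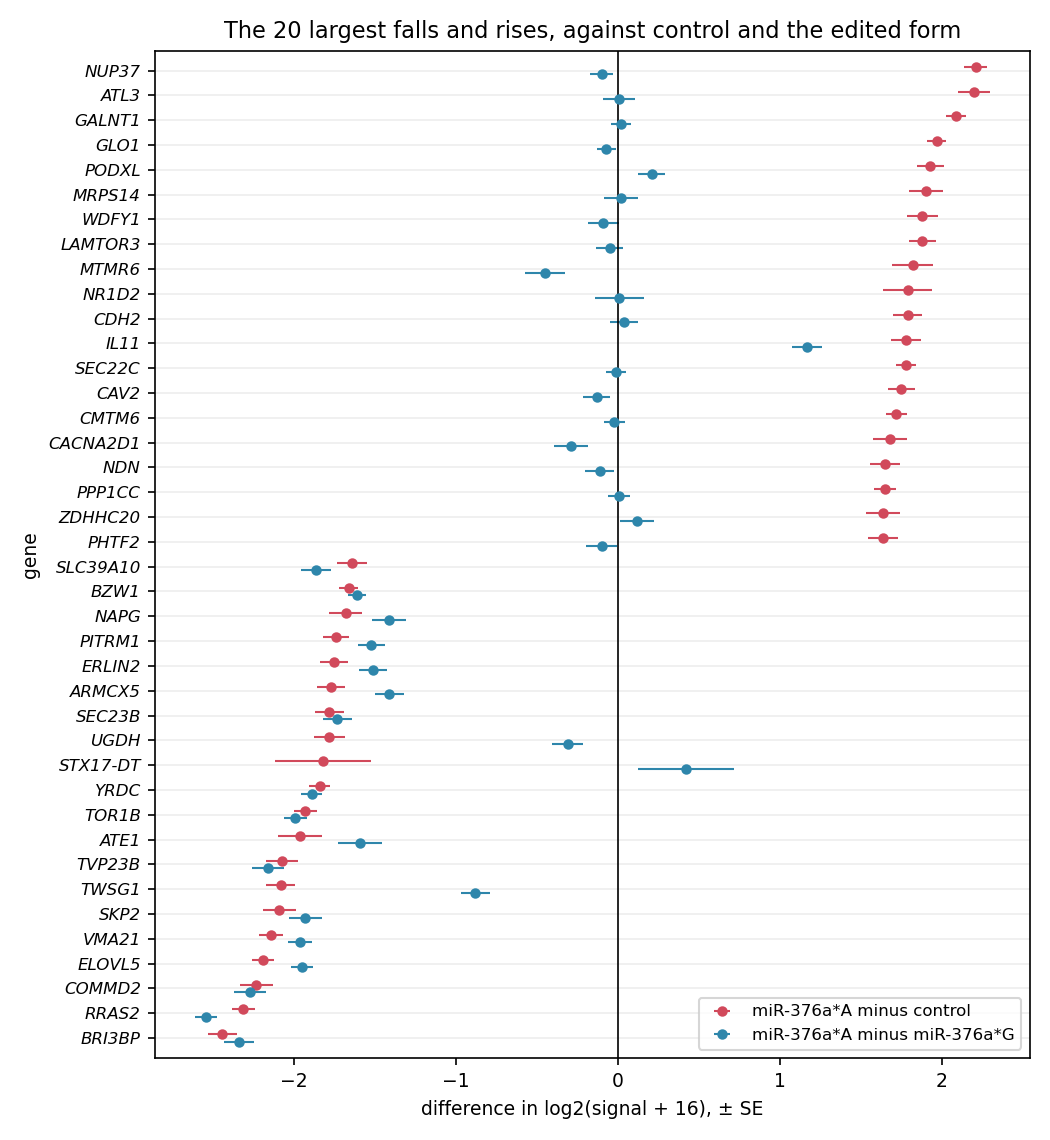
Difference in log2(signal + 16) ± SE for the 20 largest rises and the 20 largest falls, as miR-376a*A minus control (red) and miR-376a*A minus miR-376a*G (blue). For 19 of the 20 falls both points lie below 0, whereas for 18 of the 20 rises the blue points lie between -0.29 and 0.21.

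The largest rises included genes of the nuclear pore, the endoplasmic reticulum, glycosylation and cell adhesion. NUP37, a nucleoporin gene, read 876.1, 921.3 and 934.1 with miR-376a*A and 167.1, 199.8 and 188.0 in the control. The rise was 4.62-fold (2.21 ± 0.070, SE, adjusted p = 1.12e-09 by limma). GALNT1, which starts mucin-type O-glycosylation, read 648.4, 678.9 and 669.9 against 149.7, 138.9 and 142.5, a rise of 4.27-fold that its 3 other tested probe sets shared (1.78 to 2.35). GLO1, a glyoxalase that clears methylglyoxal, read 1158.9, 1211.1 and 1214.4 against 282.1, 291.1 and 304.4, which is 3.93-fold higher.

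ATL3, an atlastin that shapes the endoplasmic reticulum, was 4.59-fold higher on its brightest probe set, while its 2 other tested probe sets gave 0.12 and 0.25 and did not pass. CDH2, the N-cadherin gene, read 376.2, 358.9 and 348.0 against 94.4, 103.9 and 82.0 (3.46-fold). PODXL, a sialomucin of the cell surface, read 459.2, 472.9 and 435.1 against 121.8, 98.4 and 104.3 (3.81-fold). Both surface genes were low on all control arrays and high on all treated ones. LAMTOR3, a subunit of the Ragulator complex on lysosomes, rose 3.67-fold, and MRPS14, of the mitochondrial ribosome, 3.72-fold. WDFY1, which binds the endosomal lipid PI3P, rose 3.68-fold, and MTMR6, a phosphatase of that lipid, 3.54-fold. NR1D2, a nuclear receptor of the circadian clock, rose 3.45-fold. SEC22C, CAV2, CMTM6, CACNA2D1, NDN, PPP1CC, ZDHHC20 and PHTF2 rose 3.11-fold to 3.43-fold, of which CAV2 encodes a caveolin and PPP1CC a catalytic subunit of protein phosphatase 1. The other tested probe sets of ZDHHC20 and CACNA2D1 gave -0.05 and 0.16 and did not pass. Under the alternatives and without single arrays SEC22C ranged from 0.58 to 1.86 and PHTF2 from 0.51 to 1.79 on the log2 scale.

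Of these 20 rises, 18 did not pass between the forms, with differences of -0.29 to 0.21 and SEs of 0.059 to 0.153. IL11, a cytokine of the IL6 family, was the only one of the 20 that was also higher than with the edited form. Its signals were 214.1, 221.8 and 227.7 with miR-376a*A, 83.5, 87.3 and 98.5 with miR-376a*G and 49.2, 48.1 and 62.0 in the control. All 3 groups were apart, with differences of 1.78 ± 0.093 (SE) against the control and 1.17 ± 0.093 (SE) against the edited form. MTMR6 was lower than with the edited form by -0.45 ± 0.124 (SE).

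**Figure D4:**
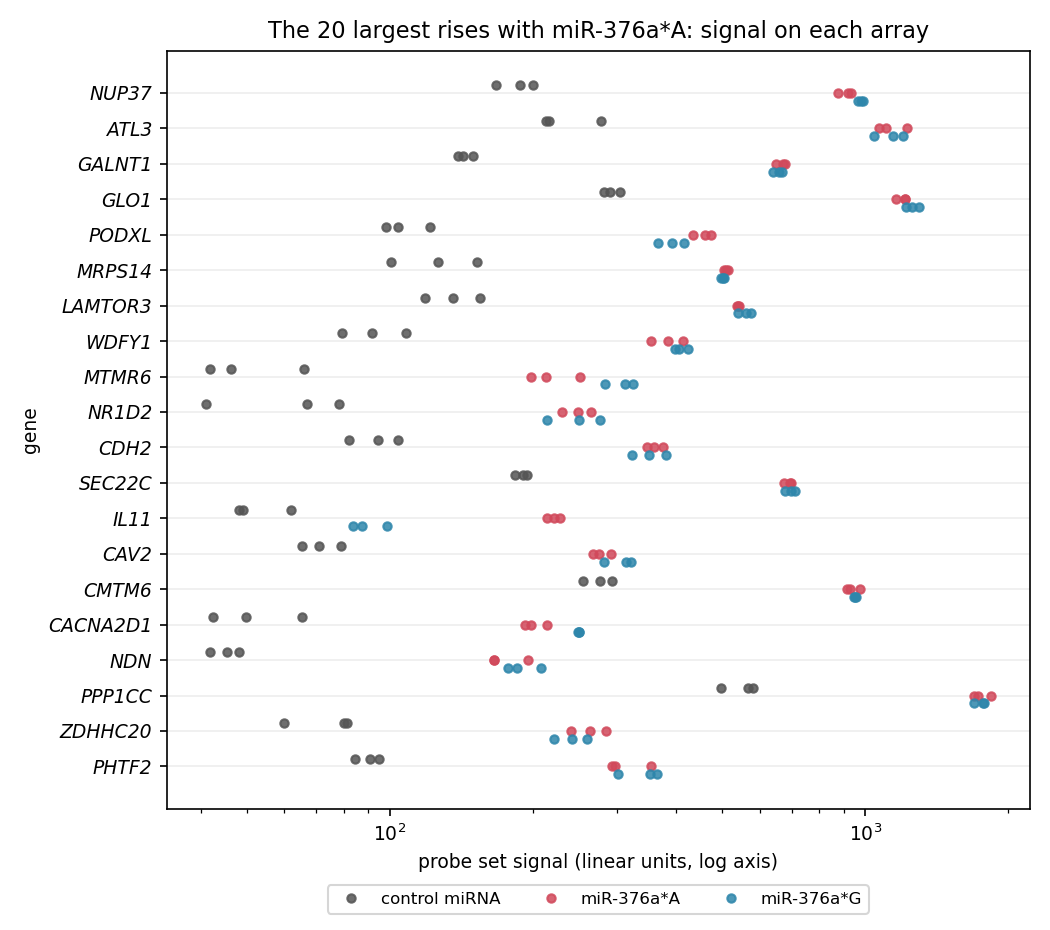
Probe set signal (linear units on a log axis) on each of the 9 arrays for the 20 largest rises, with 1 point per array. The miR-376a*A points lie right of all control points in each gene, as the choice of genes required. They lie near the miR-376a*G points in most, with IL11 as an exception.

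Among the brightest 10% of features, with signals from 703.2, the largest falls were 2.02-fold to 3.17-fold. BZW1 read 521.2, 526.0 and 538.8 against 1803.0, 1683.6 and 1649.8. The zinc importer gene SLC39A14 read 435.9, 424.7 and 439.0 against 1343.0, 1189.3 and 1277.7, and cytosolic malate dehydrogenase, MDH1, read 809.5, 845.7 and 858.1 against 1851.6, 2247.1 and 1978.8. These too were chosen among genes whose arrays lay apart from the control. SLC38A1 (a glutamine transporter), SEPTIN10, ZFP91, HNRNPAB (an RNA-binding protein) and a probe set annotated to MIR1244-3 fell 2.02-fold to 2.34-fold, and all 8 bright falls also passed as lower than with the edited form. The largest bright rises, besides GLO1 and PPP1CC, were PTN, FAM3C, CCNA2, MLEC, LSM3 and SIGLEC15, at 1.93-fold to 2.84-fold. PTN, the secreted growth factor pleiotrophin, read 1317.3, 1405.3 and 1385.1 against 389.1, 565.5 and 477.1, and CCNA2, the cyclin of S phase and mitotic entry, read 1021.2, 969.4 and 933.0 against 452.3, 408.0 and 431.9. The second probe set of LSM3 gave -0.01 and did not pass.

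Genes that passed in the same direction against both other groups were ranked by their difference from the edited form. The 6 furthest each way are named. Below both, beside BRI3BP, RRAS2, COMMD2, TVP23B and TOR1B, stood RASSF3, which encodes a protein with a RAS-association domain. It read 37.4, 25.8 and 28.9 with miR-376a*A, 95.6, 65.5 and 81.8 in the control and 165.7, 189.6 and 183.7 with miR-376a*G, so the forms lay on opposite sides of the control (-1.05 ± 0.123 and 1.02, the latter for miR-376a*G minus control). Its other 2 tested probe sets gave -0.46, which passed, and 0.06. Above both stood DISP2, HIVEP3, EMP2, LIFR, RRM2B and GDAP1. DISP2 read 52.9, 60.5 and 53.8 with miR-376a*A, 17.7, 20.7 and 5.65 in the control and 3.20, 2.91 and 3.10 with the edited form. Its edited-form signals lay below the filter on low values (signal 11.3), which it passed only through the miR-376a*A arrays. LIFR, the receptor of leukaemia inhibitory factor, read 176.5, 171.8 and 190.1 against 86.8, 82.5 and 101.0 in the control and 57.3, 62.8 and 64.2 with the edited form. RRM2B, a p53-induced subunit of ribonucleotide reductase, read 304.6, 286.7 and 264.6 against 223.7, 149.3 and 200.6 and 93.5, 105.8 and 119.2. In LIFR and RRM2B all 3 groups were apart, and the choice of genes above both set that the unedited form was highest. Over all features the unedited arrays were apart from the control in 36.7% and from the edited form in 42.2%. The 4 other tested probe sets of LIFR gave -0.09 to 0.81, of which 1 passed as higher. Those of HIVEP3, also 4, gave 0.07 to 0.45, of which 1 passed. The 2 others of GDAP1 gave 0.19 and 0.22 and did not pass. EMP2 had an adjusted p of 0.0156 by limma and did not pass without miR-376a*A replicate 1 or 2 (adjusted p = 0.057 and 0.0677).

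In the RAS, RAP and RAL list, 5 of 28 tested genes were higher and 6 lower, with a median of 0.01. RAP2A, a RAP GTPase that published work names as a target of the unedited form, read 589.8, 593.9 and 513.1 with miR-376a*A and 991.0, 887.8 and 795.2 in the control. Every treated array was below every control array, and the difference was -0.64 ± 0.084 (SE, adjusted p = 0.000177 by limma). It was lower than with the edited form by -0.84 ± 0.084 (SE). Its relatives RAP2B and RAP1B were higher by 0.60 and 0.56, with RAP2B at 891.8, 847.4 and 825.7 against 572.6, 521.3 and 581.9. RAP family members moved in both directions. The 5 rises became 3 without miR-376a*A replicate 2 or control replicate 3. ADAR, which edits double-stranded RNA, read 409.5, 414.7 and 394.1 against 527.6, 501.6 and 439.9 (-0.26 ± 0.074, SE, adjusted p = 0.0269), a call that ended without any one miR-376a*A array or without control replicate 2 (adjusted p of 0.0526 to 0.101). The related ADARB1 stood at -0.11 ± 0.122 (SE), which did not pass.

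In the lists that follow, genes named beyond the 4 with the smallest p were chosen after their values were seen, and their counts stand beside 1427 higher and 1640 lower among all 13697 genes with 1 symbol, whose median was 0.02. Of 35 tested SNARE, coat and Golgi traffic genes 3 were higher and 8 lower (median -0.02), or 8 and 9 at an unadjusted p under 0.05. Of 29 proton pump, Ragulator and lysosomal membrane genes 3 were higher and 10 lower (median -0.06), with the same counts at an unadjusted p under 0.05. STX3, a SNARE of the plasma membrane, read 316.7, 264.8 and 303.6 against 896.5, 887.0 and 818.5, 2.85-fold lower and without overlap. ATP6V1B2, a subunit of the proton pump, read 845.3, 826.8 and 861.2 against 1356.3, 1265.5 and 1200.1 (no overlap), and further pump genes, ATP6V1C1, ATP6V1H, ATP6V0D1 and ATP6V1E1, fell by 0.25 to 0.43 on the log2 scale. The rises in these lists were ATL3, TMED5 and COPB1, and LAMTOR3, TMEM106B and ATP6AP1. TMEM106B, a lysosomal membrane protein, read 296.8, 269.2 and 270.5 against 133.8, 113.1 and 115.1. It was lower than with the edited form by -0.98 ± 0.076 (SE). The 3 rises of the first list became 6 without control replicate 1 or 2, and those of the other became 5 without control replicate 2.

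Among 20 lysosomal enzymes, 2 were higher, LIPA and ARSB, and 4 were lower, CTSD, TPP1, CTSA and PPT1. The acid protease gene CTSD read 266.1, 254.2 and 264.0 against 476.6, 648.3 and 474.7 and did not pass between the forms (0.02 ± 0.102, SE). The lower count was 2 without miR-376a*A replicate 2 and 7 without control replicate 1, and the rise of LIPA, a lysosomal lipase, rests on 1 probe set, since its other one gave 0.05. The other tested probe sets of ARSB gave -0.08 to 0.02, and the calls of ARSB and TPP1 ended with the mean of a gene's probe sets (0.20 and -0.15, adjusted p = 0.074 and 0.102 by limma). Of 31 RAB and ARF genes 4 were higher and 5 lower, led by RAB8B, a GTPase of exocytosis, at 175.6, 184.4 and 176.4 against 515.8, 414.5 and 444.6 (2.43-fold lower). The 5 became 3 without miR-376a*A replicate 3. Of 29 actin and contractile genes 6 were higher and 2 lower. MYH9, non-muscle myosin heavy chain, fell by 0.95 and TPM4 by 0.47 on the log2 scale, while the tropomyosin gene TPM1 rose by 0.58. Those 6 rises became 3 without miR-376a*A replicate 2 or 3.

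Ubiquitin ligase genes of the SCF and cullin type gave 2 rises (NEDD8 and RBX1) and 5 falls among 33 tested, with a median of -0.10. Beside SKP2, the falls were of the F-box genes FBXW11, FBXO32, BTRC and FBXO7. FBXW11 read 167.5, 149.6 and 153.5 against 254.0, 266.3 and 250.6. It stood at 381.6, 339.7 and 370.5 with the edited form, above both. Neither rise passed once a miR-376a*A array was dropped, whichever it was, and the falls became 3 without miR-376a*A replicate 1 or 2. BTRC was among those that did not hold, and its 3 other tested probe sets gave 0.01 to 0.06. Of 29 genes of endoplasmic-reticulum degradation 2 were higher, EDEM3 and HERPUD1, and 5 lower, with TOR1B followed by INSIG1, a regulator of sterol sensing, which read 1003.8, 952.6 and 1027.0 against 1340.7, 1318.6 and 1374.6. The 2 rises became 6 without control replicate 2 and 1 without miR-376a*A replicate 1 or 3.

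Cell cycle genes moved both ways against the control. Of 36 tested G2/M and mitosis genes 8 were higher and 6 lower (median -0.01), and of 40 G1/S and replication genes 6 were higher and 7 lower (median 0.00). The cyclin gene CCNA2 led the rises, with NEK2, a centrosome kinase, at 507.4, 411.6 and 447.9 against 285.8, 226.1 and 283.1, and TOP2A, a topoisomerase, at 677.8, 702.3 and 669.6 against 510.5, 465.3 and 452.1. ECT2, a gene of cytokinesis, led the mitotic falls at 428.7, 426.9 and 396.0 against 893.5, 625.2 and 710.6, and CCNE2, the cyclin of S-phase entry, those of G1/S at 119.7, 136.3 and 118.8 against 217.7, 213.1 and 193.8. In none of these 4 genes did the groups overlap. The mitotic counts became 5 rises without miR-376a*A replicate 3, and 3 falls without miR-376a*A replicate 1 or 3. Against the edited form 0 of the 36 mitotic genes were higher and 19 lower (median -0.26), a count that stayed between 15 and 17 falls when any one array was left out. At an unadjusted p under 0.05 the mitotic counts were 0 and 23. Among the G1/S genes 1 was higher than with the edited form, the replication helicase gene MCM3 (0.37), and 12 were lower, which became 5 to 8 when any one array was left out, with 5 without miR-376a*G replicate 2 or 3.

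Histone genes of the replication-dependent clusters gave 6 rises and 1 fall (H2BC21) among 18 tested, with a median of 0.21. H3C2 read 36.0, 33.2 and 34.9 against 11.6, 22.6 and 20.8. The 6 became 2 without miR-376a*A replicate 3 and 3 without miR-376a*A replicate 1, and with a stricter filter on low values, at the 60th percentile, 1 was left. Against the edited form 0 were higher and 8 lower, which became 3 to 6 when any one array was left out, with 3 when the second array of either form was dropped. At an unadjusted p under 0.05 these counts were 0 and 11. The single fall against the control became 3 without control replicate 1.

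Of 27 tested genes known to be induced by p53, 10 were higher and 4 lower, or 14 and 5 at an unadjusted p under 0.05 (median 0.23, which stayed between 0.16 and 0.25 under the alternatives and without single arrays). TIGAR, which lowers glycolytic flux, read 445.6, 447.9 and 448.4 against 263.5, 283.9 and 283.5, a 1.58-fold rise. FAS, the death receptor gene, read 432.5, 453.4 and 447.1 against 350.4, 303.8 and 288.1, and BAX, a pore-forming cell death gene, 289.8, 360.3 and 387.8 against 177.0, 247.4 and 253.7. All 3 lay above the control without overlap, BAX narrowly. The falls were PPM1D, PLK2, XPC and ZMAT3, of which PPM1D, a phosphatase that restrains p53, read 82.8, 81.5 and 82.1 against 170.9, 131.0 and 143.8. The best known targets of p53 did not pass: CDKN1A, the cell-cycle inhibitor p21, read 724.1, 719.1 and 714.5 against 704.9, 750.2 and 717.5, and MDM2, the p53 ubiquitin ligase, stood at -0.11 ± 0.082 (SE). For MDM2, 2 of the 6 other probe sets passed as lower. The 4 falls became 2 without miR-376a*A replicate 2. Of 23 genes of the BCL2 family and cell death, 2 were higher (BAX and BIRC2) and 3 lower (BCL2L1, CASP2 and CASP6). BCL2L1 is uncertain, since 2 of its other probe sets also passed as lower and 1 as higher (0.64). The 2 rises became 4 without control replicate 2.

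Of 30 tested interferon-stimulated genes 0 were higher, 8 were lower and 22 did not pass, with a median of -0.14 (-0.18 to -0.10 under the alternatives and without single arrays). IFIT3, an antiviral gene, read 108.2, 111.4 and 111.0 with miR-376a*A and 156.8, 187.1 and 185.2 in the control. HERC5, which encodes the ligase of the ubiquitin-like protein ISG15, read 128.1, 116.8 and 110.9 against 210.3, 172.9 and 163.5. Both were lower on every treated array and fell by 0.60 and 0.55 on the log2 scale. HERC6, IFIT5, SAMD9, SAMD9L, IFIH1 and OAS3 fell by 0.29 to 0.59. At an unadjusted p under 0.05 by limma 1 was higher and 10 lower. The 8 became 5 without miR-376a*A replicate 3, and 1 member was higher after quantile normalization. Against the edited form 4 were higher and 4 lower, and the latter became 0 without miR-376a*A replicate 2 or 3.

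Promoters of this list are shown because its 8 calls were all falls. The core of the interferon-stimulated response element, taken as GAAA, any 2 bases and GAAA, and sought on both strands from 250 bases before to 50 after each start in RefSeq (GRCh38.p14), was found in 996 of 27305 promoters (3.65%). It was in 14 of the 23 tested members with a promoter in the table (60.9%) and in 6 of the 8 that were lower (75.0%). The list was chosen for response to interferon, so a share above that of all promoters follows from this choice. The part of the element in the falls was not tested. The promoters of IFIT3 (chr10:89327747-89328046, plus strand) and HERC5 (chr4:88456869-88457168, plus strand) hold 2 and 3 matches, printed in capitals, all read on the other strand and in HERC5 partly overlapping.
IFIT3: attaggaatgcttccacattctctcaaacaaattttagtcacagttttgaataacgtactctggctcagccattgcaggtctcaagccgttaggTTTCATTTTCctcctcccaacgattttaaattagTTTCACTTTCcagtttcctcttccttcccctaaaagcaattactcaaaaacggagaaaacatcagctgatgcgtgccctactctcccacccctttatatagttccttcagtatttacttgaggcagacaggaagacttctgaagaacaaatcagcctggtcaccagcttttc
HERC5: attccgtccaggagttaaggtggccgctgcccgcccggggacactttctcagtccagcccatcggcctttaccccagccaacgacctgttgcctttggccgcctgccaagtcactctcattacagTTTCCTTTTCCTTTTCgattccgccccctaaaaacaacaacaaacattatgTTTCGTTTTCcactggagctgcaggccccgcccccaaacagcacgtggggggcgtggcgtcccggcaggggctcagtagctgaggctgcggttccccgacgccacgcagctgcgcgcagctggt

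Cytokine and NF-kB target genes gave 8 rises and 2 falls (NFKB1 and SOD2) among 22 tested, with a median of 0.05 (0.00 to 0.14). Beside IL11 the rises were led by secreted factors: CSF3, the granulocyte colony-stimulating factor, read 302.3, 291.3 and 341.6 against 106.6, 134.6 and 115.2 (2.44-fold), and IL6 read 318.7, 289.1 and 362.9 against 106.2, 145.4 and 140.3 (2.32-fold). The chemokine gene CXCL3 read 217.6, 206.9 and 310.2 against 94.9, 107.9 and 114.3 (2.12-fold). None of the 3 overlapped with the control, and none passed between the forms. Against the edited form 2 of the 22 were higher and 11 lower (median -0.33), with 10 to 11 falls when any one array was left out. The 2 falls against the control became 1 when miR-376a*A replicate 2, miR-376a*A replicate 3 or control replicate 3 was left out.

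Targets of YAP and TEAD, which respond to the Hippo pathway, gave 11 rises and 2 falls (AXL and RBMS3) among 25 tested, with a median of 0.16 (0.12 to 0.21). CCN2, a secreted matricellular protein, read 170.2, 158.6 and 166.3 against 107.4, 98.2 and 107.3 in the control. With the edited form it read 403.3, 441.8 and 446.8, so that it was higher than the control and lower than the edited form (-1.30 ± 0.073, SE). FJX1 read 492.6, 470.3 and 464.4 against 279.5, 289.7 and 280.6, while the receptor kinase gene AXL read 670.2, 646.3 and 614.2 against 1336.5, 1322.1 and 1287.1, 2.02-fold lower. The falls became 1 without any one miR-376a*A array or without control replicate 3, and the rise of TEAD1 was on 1 of its 3 tested probe sets only. Set against the edited form, 3 of the 25 were higher and 10 lower.

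TGF-beta and BMP genes gave 11 rises and 4 falls (TWSG1, TGFB1, SMAD7 and SMAD1) among 35 tested, with a median of -0.02. The ligand gene TGFB2 rose by 0.86, and its co-receptor TGFBR3 read 110.8, 102.0 and 109.8 against 67.7, 62.8 and 58.0. The receptors TGFBR1 and TGFBR2 rose by 0.34 and 0.51 and the inhibitor-of-DNA-binding genes ID1 and ID3 by 0.48 and 0.55 on the log2 scale. The other rises were FST, SKIL, SMAD6, GREM1 and BMP1, and 20 of the 35 did not pass. Among the falls, the ligand TGFB1 stood at -0.36 and the inhibitor SMAD7 at -0.34. Other tested probe sets of TGFB2 gave -0.01 to 0.24 and did not pass. The 4 falls became 2 without miR-376a*A replicate 1 or 3.

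Matrix genes were found on both sides. Of 31 collagens, laminins and other matrix proteins 10 were higher and 5 lower (median 0.11). The collagen chaperone SERPINH1 read 444.4, 425.9 and 463.0 against 256.8, 250.3 and 267.4, and the lysyl oxidase LOXL2 read 1097.0, 1070.6 and 1081.3 against 636.0, 704.8 and 645.3, although 2 other probe sets of LOXL2 gave 0.07 and 0.17 and did not pass. LOXL1 and LOXL3, of the same enzyme family, rose by 0.46 and 0.29. All 5 falls were of collagen genes, COL6A2, COL5A2, COL12A1, COL8A1 and COL6A1, while COL1A1, COL1A2 and COL4A2 were among the rises. COL5A2 read 235.0, 212.6 and 218.7 against 454.3, 368.1 and 405.0, and COL6A2 67.5, 72.4 and 68.6 against 160.8, 185.9 and 148.2, though the other probe set of COL6A2 gave 0.12. Of 28 matrix proteases and inhibitors 6 were higher, with the inhibitor TIMP3 at 178.6, 171.7 and 162.3 against 80.7, 120.6 and 98.6, and 2 lower, ADAM17 and MMP2. ADAM17, the sheddase of TNF and of EGF-receptor ligands, read 146.0, 138.4 and 134.1 against 249.4, 236.6 and 255.2. These 2 falls became 4 without miR-376a*A replicate 1 or control replicate 2.

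Of 30 integrin and focal adhesion genes 7 were higher and 4 lower (ITGA5, ITGB3, VCL and TLN2), with a median of 0.07. The integrin subunit ITGB3 read 258.3, 249.7 and 249.1 against 437.5, 340.7 and 366.8 in the control and 115.9, 121.4 and 115.5 with the edited form. It was lowest with the edited form, and the difference between the forms was 1.01 ± 0.086 (SE). Against the edited form 17 of the 30 genes were higher and 0 lower (median 0.32), which became 14 to 15 when any one array was left out (18 and 1 at an unadjusted p under 0.05). The fall of ITGB3 against the control lost its call with the mean of its probe sets (-0.19, adjusted p = 0.088 by limma), and its 6 other tested probe sets gave -0.40 to 0.22, of which 2 passed as lower. PARVB, a focal adhesion adaptor, rose by 0.48 on its brightest probe set, but the mean of its probe sets gave -0.01. Of 20 cadherin, catenin and mesenchymal genes 3 were higher (PODXL, CDH2 and NECTIN3) and 1 lower (PCDH10), and the 1 became 2 without control replicate 3. The call of NECTIN3 ended with the mean of its probe sets (0.17, adjusted p = 0.222 by limma).

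Of 21 fatty acid genes 0 were higher and 5 lower (median -0.11): ELOVL5, HACD2, ELOVL6, SCD5 and SCD. At an unadjusted p under 0.05 by limma the counts were 0 and 6. ELOVL6, which elongates saturated fatty acids, read 384.9, 332.2 and 351.2 against 617.3, 423.1 and 532.0, and HACD2, a dehydratase of the elongation cycle, read 257.8, 235.3 and 247.1 against 463.9, 294.8 and 387.6. In both the control arrays were widely spread, with replicate 2 lowest, and no array overlapped. Other tested probe sets of ELOVL6 gave -0.25 and 0.01 and did not pass. The 5 became 3 without miR-376a*A replicate 1 or 2, and SCD, the stearoyl desaturase, did not pass without either (adjusted p = 0.0588 and 0.0696). Of 19 cholesterol genes 6 were higher and 3 lower (DHCR7, INSIG1 and SC5D; median -0.03), or 6 and 7 at an unadjusted p under 0.05, with MSMO1, a sterol oxidase, at 921.9, 843.3 and 907.7 against 723.7, 680.5 and 671.5. Those 6 became 2 without miR-376a*A replicate 3 and 3 without replicate 2. Of 38 glycosylation enzymes 10 were higher and 3 lower (ALG2, GALNT11 and MGAT4B), and the 10 became 5 without miR-376a*A replicate 3. C1GALT1C1, the chaperone of the enzyme that extends O-glycans, read 582.9, 573.0 and 585.1 against 287.4, 344.0 and 346.4, and ALG2, a mannosyltransferase of N-glycan assembly, 203.7, 158.0 and 199.8 against 424.5, 491.1 and 411.9.

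Of 28 tRNA modification and arginylation genes 2 were higher (TRMT5 and PUS7) and 7 lower (median -0.08), with NSUN2, a tRNA cytosine methyltransferase, at 140.1, 137.7 and 147.7 against 386.1, 334.6 and 331.9 after ATE1 and YRDC. The rises became 1 on dropping control replicate 3 or either of miR-376a*A replicates 2 and 3. Of 32 genes of miRNA processing and mRNA decay 4 were higher (CNOT6, TNRC6C, PABPC1 and CNOT7) and 8 lower (median 0.03), or 6 and 9 at an unadjusted p under 0.05. The decapping enzyme gene DCP2 read 160.1, 175.3 and 178.2 against 470.7, 378.3 and 434.5, and its activator DCP1A 248.9, 235.2 and 229.3 against 398.1, 437.5 and 359.1. The Argonaute genes AGO3 and AGO1 fell by 0.58 and 0.30 on the log2 scale. The other tested probe sets of DCP2 gave -0.16 and 0.25 and did not pass. The 4 rises became 2 without miR-376a*A replicate 1 or 2, and the 8 falls became 5 without replicate 1.

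Of 34 spliceosome genes 5 were higher and 8 lower (median 0.05). Subunits of the SF3A and SF3B complexes, which bind the branch point, made up 5 of the 8: SF3B4, SF3B3, SF3A2, SF3A1 and SF3A3. This subgroup was picked after the values were seen, and its members that did not pass are not counted here. SF3B4 read 102.8, 92.6 and 97.6 against 249.3, 241.3 and 216.0 and did not pass between the forms (-0.13 ± 0.084, SE). The splicing factor SRSF1 read 1468.3, 1496.9 and 1451.9 against 1002.4, 917.0 and 997.2, a rise. The 8 falls became 5 without any one miR-376a*A array, and the 5 rises became 3 without replicate 2. Of 34 nuclear pore and import genes 5 were higher and 7 lower (median -0.06). NUP50, a mobile nucleoporin, read 230.0, 219.5 and 202.6 against 548.4, 523.8 and 524.6, a fall shared by its 4 other tested probe sets, in contrast to the rise of NUP37. The 7 falls became 3 without miR-376a*A replicate 2 and 2 without replicate 3.

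Genes of protein synthesis and of mitochondria mostly did not pass. Of 26 cytosolic ribosomal protein genes 0 were higher and 0 lower in limma's test, with differences of 0.08 to 0.20 and a median of 0.13, and 6 were higher at an unadjusted p under 0.05. Of 27 proteasome genes 1 was higher (PSMD12), and of 36 oxidative phosphorylation genes 1 was higher (NDUFA9) and 1 lower (NDUFS1). Without control replicate 2 each of these 3 lists gave 11 rises. No proteasome gene rose when replicate 1 or 3 of either group was left out, and without any one miR-376a*A array no oxidative phosphorylation gene rose. The oxidative phosphorylation rises became 2 without control replicate 3, and its falls became 2 without control replicate 1 and 0 without miR-376a*A replicate 1. The part of that array in these values was not tested. Of 41 mitochondrial ribosomal protein genes 7 were higher and 1 lower (MRPS2), with a median of 0.19, and the rises became 16 without control replicate 2 and 4 without miR-376a*A replicate 2 or 3. The 1 fall became 4 without control replicate 1. Of 30 translation factors 3 were higher (EIF4EBP2, EIF1AX and EIF3E) and 1 lower (EIF2S3), of which EIF1AX turned to -0.13 with the mean of its probe sets and EIF4EBP2 had 1 other probe set that passed as lower (-0.33). The 3 became 1 without any one miR-376a*A array or control replicate 1, and 7 without control replicate 2. The 1 fall became 0 without any one miR-376a*A array, 2 without control replicate 1 and 3 without control replicate 3. Of 23 chaperones 0 were higher and 3 lower (HSPH1, DNAJB6 and HSPA9), or 2 and 5 at an unadjusted p under 0.05 by limma. None of the 3 passed without miR-376a*A replicate 1 or 2, 1 fall was left without control replicate 3, and 1 chaperone was higher without control replicate 1.

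Of 30 genes of the unfolded protein response and ATF4, 10 were higher and 5 lower (median 0.09). The rises were led by DDIT4 (0.55) and also held TRIB3, HERPUD1, SESN2, PHGDH, ATF4 itself (0.32) and the chaperone genes MANF, CANX and PDIA6. The transcription factor XBP1 rose too, at 422.8, 415.7 and 430.4 against 287.3, 296.2 and 296.7. The falls were the transporters SLC7A11, SLC3A2 and SLC7A5, CHAC1 and DNAJC3. SLC7A11, which imports cystine with SLC3A2, read 431.7, 388.0 and 428.1 against 987.2, 799.5 and 860.8, a 2.07-fold fall shared by its 2 other tested probe sets (-0.80 and -0.48). The 10 rises became 5 without any one miR-376a*A array, and 6 without control replicate 3, and the 5 falls became 3 without miR-376a*A replicate 2 or control replicate 3. Of 29 glutathione and oxidant defence genes 4 were higher (GLO1, GSR, SOD1 and PRDX3) and 4 lower (SLC7A11, GCLC, SRXN1 and PGD). Glutamate-cysteine ligase, GCLC, which makes the precursor of glutathione, read 401.9, 384.7 and 394.1 against 590.9, 487.7 and 528.9. The 4 rises became 2 without any one miR-376a*A array or control replicate 3, and 7 without control replicate 2.

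Of 33 hypoxia and glycolysis genes 2 were higher (DDIT4 and VEGFA) and 5 lower (PKM, SLC2A3, ENO2, PFKM and PFKL), with a median of 0.06. The glucose transporter SLC2A3 read 404.1, 406.9 and 410.2 against 667.0, 556.6 and 606.8, and phosphofructokinase PFKM 838.6, 825.6 and 836.5 against 1037.5, 1114.0 and 1009.0. DDIT4, an inhibitor of mTOR, was highest with the unedited form at 841.9, 845.4 and 889.0, against 532.2, 637.3 and 584.2 in the control and 458.6, 430.7 and 458.7 with the edited form. Compared with the edited form 15 of the 33 were higher and 1 lower (median 0.20), which became 9 without miR-376a*A replicate 2. The 2 rises against the control became 1 on dropping control replicate 3 or either of miR-376a*A replicates 1 and 2.

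Growth factor and kinase genes moved both ways. Of 31 receptor tyrosine kinases and growth factors 9 were higher and 5 lower (FGF2, AXL, FGFR2, FGFR1 and IGF1R), with a median of 0.12. FGF2, basic fibroblast growth factor, read 133.2, 116.3 and 129.2 against 407.1, 279.8 and 318.5 in the control and 380.7, 469.3 and 447.6 with the edited form. It was lowest with the unedited form, by -1.29 ± 0.120 and -1.65 ± 0.120 (SE), and its receptors FGFR2 and FGFR1 were also among the falls. PDGFC, a platelet-derived growth factor, read 1128.0, 1094.0 and 1040.2 against 797.5, 739.0 and 755.1. The 9 rises became 5 on leaving out control replicate 3 or either of miR-376a*A replicates 1 and 2. Of 27 MAPK feedback and early response genes 5 were higher and 3 lower (FOSL1, DUSP5 and MYC), and the phosphatase DUSP4 read 704.1, 641.2 and 681.6 against 253.1, 344.5 and 311.5. DUSP6 and SPRY2, both ERK feedback inhibitors, rose by 0.60 and 0.47. Those 5 became 3 without miR-376a*A replicate 1 or 2, and 8 without control replicate 2.

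Of 29 PI3K, AKT and mTOR genes 7 were higher and 7 lower (median -0.08). RPS6KB1, the S6 kinase, read 83.9, 87.7 and 93.3 against 224.9, 164.4 and 206.1, and RPS6KA3, a kinase downstream of ERK, 153.9, 147.7 and 163.5 against 297.8, 306.4 and 311.2. Both also passed as lower than with the edited form (-1.04 and -1.21). The falls became 3 without miR-376a*A replicate 2 and 4 without miR-376a*A replicate 3 or control replicate 3, and the rises 4 without miR-376a*A replicate 3. Of 24 Wnt genes 5 were higher and 7 lower (median -0.10). WNT5A, a ligand of non-canonical signalling, read 1362.1, 1217.5 and 1218.6 against 799.0, 676.2 and 763.9, and among the falls were the receptors FZD5, FZD6 and FZD2. The other tested probe set of FZD5 gave 0.28, and its call ended with the mean of both (-0.14, adjusted p = 0.428 by limma). This count was unsteady: the falls became 2 without miR-376a*A replicate 1 or 2, 3 without replicate 3 and 4 without control replicate 1 or 3, and the rises 2 without miR-376a*A replicate 1.

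Of 19 glial and neural genes 3 were higher (SNAP25, CSPG4 and SOX9) and 4 lower (MAP2, ENO2, GAP43 and CNP). SNAP25, a SNARE of neurotransmitter release, read 743.7, 756.9 and 684.4 with miR-376a*A, 314.1, 299.1 and 292.7 in the control and 357.3, 440.2 and 420.9 with the edited form. It was highest with the unedited form, 2.34-fold above the control, and its 2 other tested probe sets gave 1.27 and 1.29. The other neuronal marker above a mean of 100, SYT1, stood at 0.04 ± 0.127 (SE), which did not pass. GAP43, a growth cone protein, read 163.9, 168.7 and 159.2 against 208.0, 258.1 and 262.5, though 2 other probe sets gave -0.08 and 0.11. Of 19 circadian clock genes 4 were higher (NR1D2, CRY1, RORA and BHLHE41) and 2 lower (NFIL3 and BHLHE40). The call of RORA ended with the mean of its probe sets (0.15, adjusted p = 0.118 by limma). The 4 rises became 1 without miR-376a*A replicate 1 or 2 and 2 without control replicate 2 or 3.

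**Figure D5:**
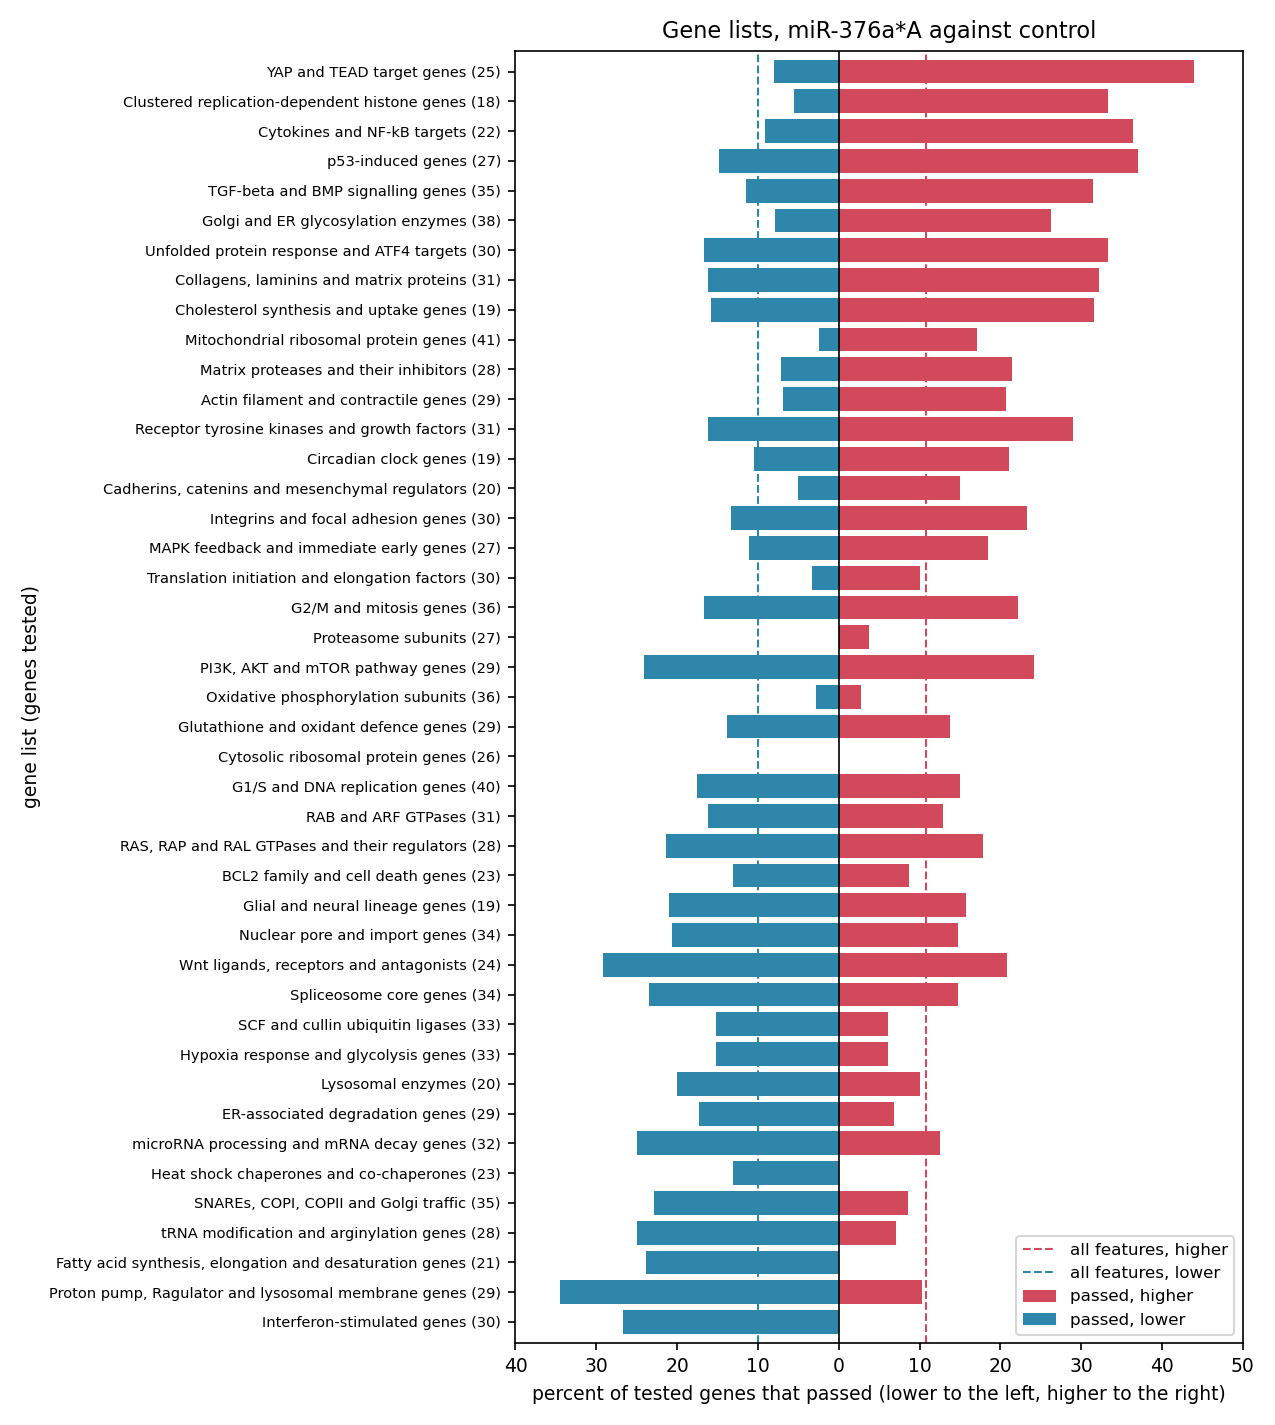
Share of the tested genes of each of 43 lists that passed as higher (red, to the right) or lower (blue, to the left) with miR-376a*A against control, with the number tested in parentheses. Dashed lines mark the shares over all features, 10.8% higher and 10.0% lower. The lists are sorted by the balance of rises and falls.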

How the data were processed

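RNA of U87 cells was measured on 9 one-colour Affymetrix arrays, 3 a group. Per the labels, total RNA was extracted with Trizol, cleaned on a column, labelled with biotin-ULS after amplification. Deposited values are linear signal intensities, 1 per probe set, and GCOS 1.4.0.036 is named in the submitters' processing notes. The sources used here do not say what that program did, how probes were summarised or to what value arrays were scaled. Since the arrays share a trimmed mean, a shift of all transcripts together would not be seen.

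Of 54675 probe sets, 62 controls were left out. The platform annotation gave 41091 probe sets 1 symbol, 1801 several and 11721 none. Values were taken as log2(signal + 16), and the 32768 probe sets above the 40th percentile of the mean (signal 11.3) were kept. The probe set with the highest mean stood for a gene, which left 20068 features. limma 3.58.1 in R 4.3.3 (lmFit, eBayes with an intensity trend) was fitted to all 9 arrays with 1 mean a group, and two-sided p-values were adjusted by Benjamini-Hochberg over all features, with 0.05 as the threshold. The fit was tested on simulated data.

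Genes were named by rule: the 20 largest rises and falls that passed, and the 8 largest each way among the brightest 10% of features. Added to these were the 6 furthest from the edited form each way, among genes that passed in the same direction against both other groups. The up to 4 of smallest p per gene list and a few chosen from published work completed them. The 44 gene lists and the members were chosen with earlier results of these data known. 1 of the lists is not reported here. The deviations of samples sharing a replicate number correlated weakly (0.0401 to 0.0709, below the 0.1 set for pairing), so the numbers were not used as pairs. Alternatives changed the normalization, offset, filter, probe set rule, arrays and variance model, or left out each array in turn.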

Additional observations from a re-analysis of the deposited data

How the results depend on the processing

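The count of features that differed between miR-376a*A and the control (4177) ranged from 2829 to 4693 when each array was left out, and that of at least 2-fold differences (184) from 181 to 198. Between the forms (3671) the range was 2331 to 2960. Testing every probe set gave 6988, 295 and 5942, with more features tested. The 2-fold count was 340 with log2(signal + 1) and 98 with log2(signal + 64), since the offset itself sets the fold of dim genes. With the replicate number as a block, whose correlations did not reach the bar for pairing, the counts were 3840, 184 and 3325, although each miR-376a*A array correlated best with the control array of its own number, a hint from the data only. With only the arrays of the groups compared they were 3191 against the control and 5472 between the forms. Over 3395 values of 200 named genes under single alternatives, 3298 kept their direction and side of the threshold, 95 lost the call and 2 reversed: EIF1AX to -0.13 and PARVB to -0.01 with the mean of a gene's probe sets. Of 1496 list counts, 218 moved by over 1.5 times. The causes were not tested. Signals near background limit the dimmest features.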
